A study of Homo sapiens with 30 samples.

Results

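The 10 genes described here encode enzymes that make, activate or clear androgens: CYP17A1, HSD3B1, HSD17B3, HSD17B6, the aldo-keto reductases AKR1C1, AKR1C2 and AKR1C3, and the steroid 5-alpha-reductase genes SRD5A1, SRD5A2 and SRD5A3. They were chosen by name, as 10 of the 23710 gene symbols with read counts, and all 10 were also found among the 23616 symbols with FPKM. Outside the testis, androgens are built from adrenal precursors. CYP17A1 makes the precursor DHEA, HSD3B1 turns it into androstenedione, HSD17B3 or AKR1C3 reduce that to testosterone, and the 5-alpha-reductases convert testosterone to the stronger ligand dihydrotestosterone (DHT). AKR1C2 inactivates DHT and HSD17B6 can restore it, and prostate tumours that grow under castration are known for using these steps.

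Poly(A) RNA was sequenced in strand-specific libraries from V16D and MR49F, prostate cancer cell lines derived from LNCaP. V16D is the castration-resistant parent, and MR49F came from tumours in castrated mice given enzalutamide for a long time. Each line is a single derivative, so a difference between them is between 2 lines and not between genotypes. Every condition had 3 replicates, which the paper calls biological. Separate cultures are not stated, so the p-values may measure only the spread between wells.

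In the full serum experiment V16D and MR49F cells were plated at 300000 cells per well and received 0.1% DMSO vehicle or 10 μM enzalutamide, an antiandrogen drug, for 24 h in 10% serum. In the other experiment, MR49F cells only were plated at 200000 cells per well, kept 72 h in charcoal-stripped serum, from which steroids are removed, and treated for 24 h. They were given vehicle, enzalutamide at 10 μM, DHT at 1 nM or the BET bromodomain inhibitor JQ-1 at 500 nM, or JQ-1 combined with either ligand at the same doses. Per the labels, enzalutamide was left out of the medium of both lines from before plating until treatment. The paper states that MR49F cells were otherwise kept in 10 μM enzalutamide, and it does not state this for V16D. Line and drug history thus changed together. Serum, plating density and experiment changed together and cannot be told apart.

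Between 13170504 and 21154962 reads per library were counted on genes in full serum and between 982130 and 1813262 in stripped serum, which made up 72.97% to 77.8% and 5.13% to 7.66% of all reads that the counting placed on, between or outside genes. Of 38 genes with at most 3 reads over the 3 MR49F vehicle libraries in full serum and at least 100 over those in stripped serum, 35 (92.1%) have an exon that overlaps an exon on the other strand, against 18.1% of 20504 genes, and the part of the strand setting in the stripped serum counts was not tested. FPKM (fragments normalized for the length of the transcript and the size of the library) are therefore given first for stripped serum, with counts beside them. In full serum, vehicle-treated MR49F replicate 1 stood apart from replicates 2 and 3, with a chi-square per degree of freedom of 9.86 and 11.6 where replicates 2 and 3 gave 2.24. The prostate luminal markers KLK2, KLK3, HOXB13, FOLH1, TMPRSS2 and STEAP2 were at 1 FPKM or more in every library. All 7 adrenal or Leydig cell markers stayed under 1 FPKM in every library, with a summed level of 0.0188 to 0.713 FPKM, and CYP11B2 was listed at 0 throughout. The 3 basal markers KRT5, KRT14 and TP63 summed to at most 0.352 FPKM, 4 fibroblast markers to 0.711 to 2.68, 4 neuroendocrine markers to 0.629 to 10.5 (mostly SYP) and 3 leukocyte markers to 1.31 to 6.44 (mostly CD68).

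CYP17A1, HSD17B3 and SRD5A2 were at or near 0. CYP17A1 (chromosome 10 of GRCh37, 104590288 to 104597229, minus strand) had 7 reads in all 30 libraries together, at most 2 in any of them, and reached at most 0.0287 FPKM. Its exons overlap those of WBP1L on the other strand over up to 374 bases, and 5 of the 7 reads came from stripped serum, where WBP1L was at 15.8 FPKM with vehicle. HSD17B3 (chromosome 9, 98997588 to 99064458, minus strand) had 6 reads in all, and its FPKM were 0 to 0.0548 in full serum and 0 to 0.304 in stripped serum. SRD5A2 (chromosome 2, 31747550 to 31806007, minus strand), the 5-alpha-reductase of the normal prostate, had a single read in 30 libraries and reached at most 0.0426 FPKM. None of these 3 genes passed a filter on low values in any comparison, and differences in them were not detectable at this depth.

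HSD3B1 (chromosome 1, 120049821 to 120057677), which forms androstenedione from DHEA, was low in every library, and in stripped serum lowest with JQ-1. In full serum the 3 MR49F libraries with vehicle held 7, 12 and 6 reads of HSD3B1 and those with enzalutamide 11, 18 and 12. The V16D libraries held 0, 2 and 0 reads with vehicle and 4, 2 and 1 with enzalutamide. Every MR49F library in full serum thus held more HSD3B1 reads than every V16D library. Without a filter on low counts the vehicle groups of the lines differed (edgeR, adjusted p = 0.000578), as 48.4% of all genes did in that fit, and enzalutamide in MR49F gave a log2 fold change of 0.39 (SE 0.328, adjusted p = 0.518 with the filter, edgeR).

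In stripped serum HSD3B1 was at 0.0635 to 0.413 FPKM in the 9 libraries without JQ-1 and at 0 to 0.0324 in the 9 with JQ-1. With vehicle the values were 0.130, 0.244 and 0.256 FPKM, and with JQ-1 0, 0 and 0.0295. With DHT they were 0.413, 0.207 and 0.299 FPKM, and HSD3B1 was listed at 0 in all 3 libraries given DHT with JQ-1. With enzalutamide they were 0.200, 0.136 and 0.0635 FPKM, and 0, 0.0324 and 0 after JQ-1 was added. No JQ-1 library overlapped a library of the group it was compared with. HSD3B1 missed the filter of 1 FPKM, so these comparisons come from a fit without it: limma on log2(FPKM + 1) gave a difference of -0.26 (SE 0.0431, adjusted p = 0.00248) for JQ-1 against vehicle and of -0.16 (SE 0.0445, adjusted p = 0.0200) for JQ-1 added to enzalutamide. Added to DHT, JQ-1 gave an adjusted p of 0.00120 (limma). In these 3 fits 55.9%, 55.8% and 57.8% of all genes passed. Only 5 HSD3B1 reads were counted in stripped serum, all without JQ-1. On these counts, without a filter, edgeR gave adjusted p = 0.502 for JQ-1 against vehicle, 0.286 when it was added to enzalutamide and 0.484 when it was added to DHT.

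**Figure D1:**
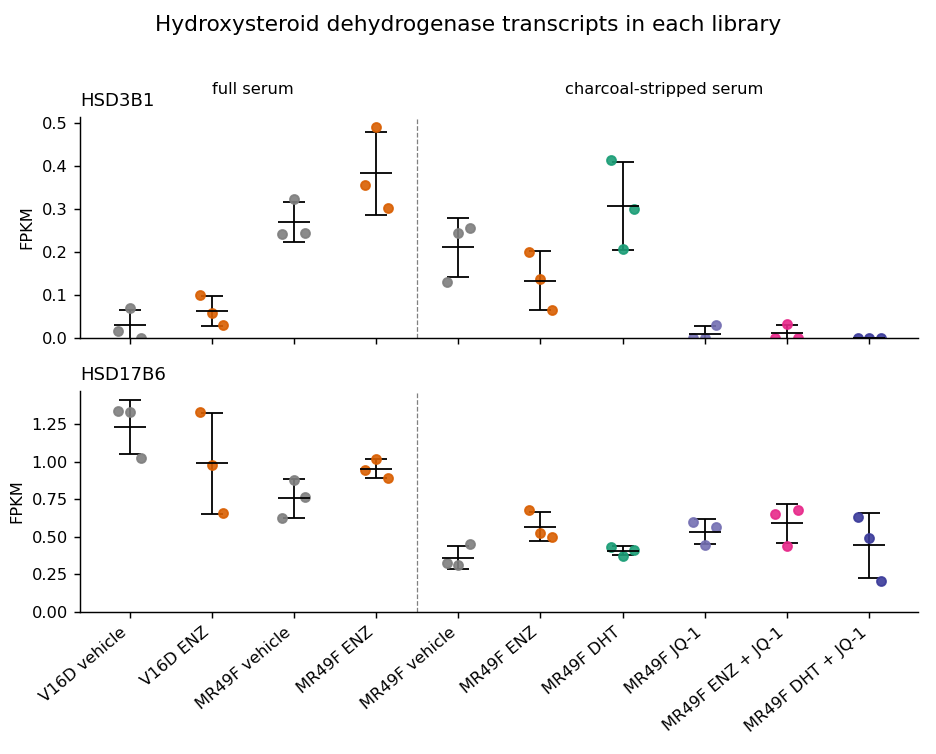
FPKM of HSD3B1 and HSD17B6 (vertical axes, from 0) in each library of the 10 conditions (horizontal axis; ENZ, enzalutamide), with points for libraries and bars for mean and SD (n = 3). The 9 HSD3B1 points with JQ-1 lie at 0 to 0.0324 FPKM, under the 9 points without it in stripped serum, and HSD17B6 is highest in V16D cells with vehicle (1.23 FPKM on average).

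The genes AKR1C1, AKR1C2 and AKR1C3 lie side by side on chromosome 10 of GRCh37, at 5005445 to 5025475 (plus strand), 5029967 to 5060223 (minus strand) and 5077546 to 5149878 (plus strand). AKR1C3 makes testosterone from androstenedione, AKR1C2 inactivates DHT, and AKR1C1 mainly reduces progesterone. Their coding sequences are of the same length, 972 bases, and AKR1C1 differs from AKR1C2 at 19 of them (98.0% identical) and from AKR1C3 at 83 (91.5%). A read here is 50 bases long, so many reads cannot be placed. Of all 50-base windows of the canonical GENCODE transcript, 22.6% in AKR1C1, 47.3% in AKR1C2 and 18.6% in AKR1C3 also occur in another AKR1C transcript. The values of single AKR1C genes are therefore uncertain, and their sum is given beside them, an alternative added after the values were seen.

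The first 3 sequences show a read-length window that AKR1C1 and AKR1C2 share, coding bases 874 to 923 in exon 8 (chr10:5018070-5018119 plus strand, chr10:5034029-5034078 minus strand and chr10:5147814-5147863 plus strand of GRCh37), with the bases that differ from AKR1C1 in capitals:
AKR1C1: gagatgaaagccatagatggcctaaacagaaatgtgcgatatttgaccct
AKR1C2: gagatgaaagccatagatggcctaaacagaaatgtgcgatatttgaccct
AKR1C3: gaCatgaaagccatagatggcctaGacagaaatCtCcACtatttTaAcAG
A read from this window matches both of the first 2 genes and cannot be assigned to either by its sequence. By contrast, coding bases 103 to 162 in exon 2 (chr10:5008124-5008183 plus strand, chr10:5043796-5043855 minus strand and chr10:5138620-5138679 plus strand) hold the most differences between AKR1C1 and AKR1C2 of any window of 60 bases starting at a codon, 10 in all, and AKR1C3 differs from AKR1C1 at 7:
AKR1C1: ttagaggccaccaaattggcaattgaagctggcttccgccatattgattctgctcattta
AKR1C2: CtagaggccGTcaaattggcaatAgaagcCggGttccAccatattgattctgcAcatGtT
AKR1C3: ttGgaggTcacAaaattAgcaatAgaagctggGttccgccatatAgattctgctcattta
Reads can be told apart only where such positions fall.

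In MR49F cells in full serum, AKR1C1 and AKR1C2 rose with enzalutamide. The vehicle libraries held 9, 14 and 5 reads of AKR1C1 and the enzalutamide libraries 18, 29 and 26. For AKR1C2 the libraries held 22, 37 and 30 reads with vehicle and 70, 72 and 67 with enzalutamide. Neither gene overlapped between the groups. In edgeR's quasi-likelihood test AKR1C1 rose by a log2 fold change of 1.05 (SE 0.288, adjusted p = 0.0478) and AKR1C2 by 0.91 (SE 0.199, adjusted p = 0.0182). These were 2 of the 7 genes of the group that passed the count filter, where 8.48% of all 13927 genes tested passed the threshold. Without vehicle replicate 1, which stood apart, both passed (adjusted p = 0.0240 and 0.00245), and the number of all genes called rose from 1181 to 2533 (edgeR). AKR1C1 lost the call without enzalutamide replicate 1, 2 or 3 or vehicle replicate 2 or 3 (highest adjusted p = 0.174, edgeR), and AKR1C2 without enzalutamide replicate 1 or 2 or vehicle replicate 2 (highest adjusted p = 0.0750, edgeR). DESeq2 gave AKR1C1 no adjusted p and called AKR1C2.

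AKR1C3 held 7, 12 and 8 reads with vehicle and 10, 14 and 15 with enzalutamide, with overlap, and its log2 fold change of 0.21 (SE 0.283) did not pass (adjusted p = 0.754, edgeR). Its values were 0.895, 0.871 and 0.862 FPKM with vehicle and 1.41, 1.42 and 1.40 with enzalutamide, a difference of 0.36 on log2(FPKM + 1) (adjusted p = 0.0116, limma), in a fit that called 4.60% of all genes. It reached 1 FPKM in the enzalutamide libraries alone, so on FPKM it had to differ to be tested. The count and FPKM files also differed in which paralog was higher. With enzalutamide AKR1C1 averaged 1.32 ± 0.182 and AKR1C2 3.88 ± 0.744 CPM (reads scaled to library size after normalization, SD, n = 3), whereas on the length-scaled FPKM AKR1C1 averaged 2.44 ± 0.181 and AKR1C2 1.62 ± 0.281. Summed, the 3 genes held 38, 63 and 43 reads with vehicle and 98, 115 and 108 with enzalutamide. The sum rose by 0.84 on the log2 scale (SE 0.147, adjusted p = 0.00567, edgeR).

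**Figure D2:**
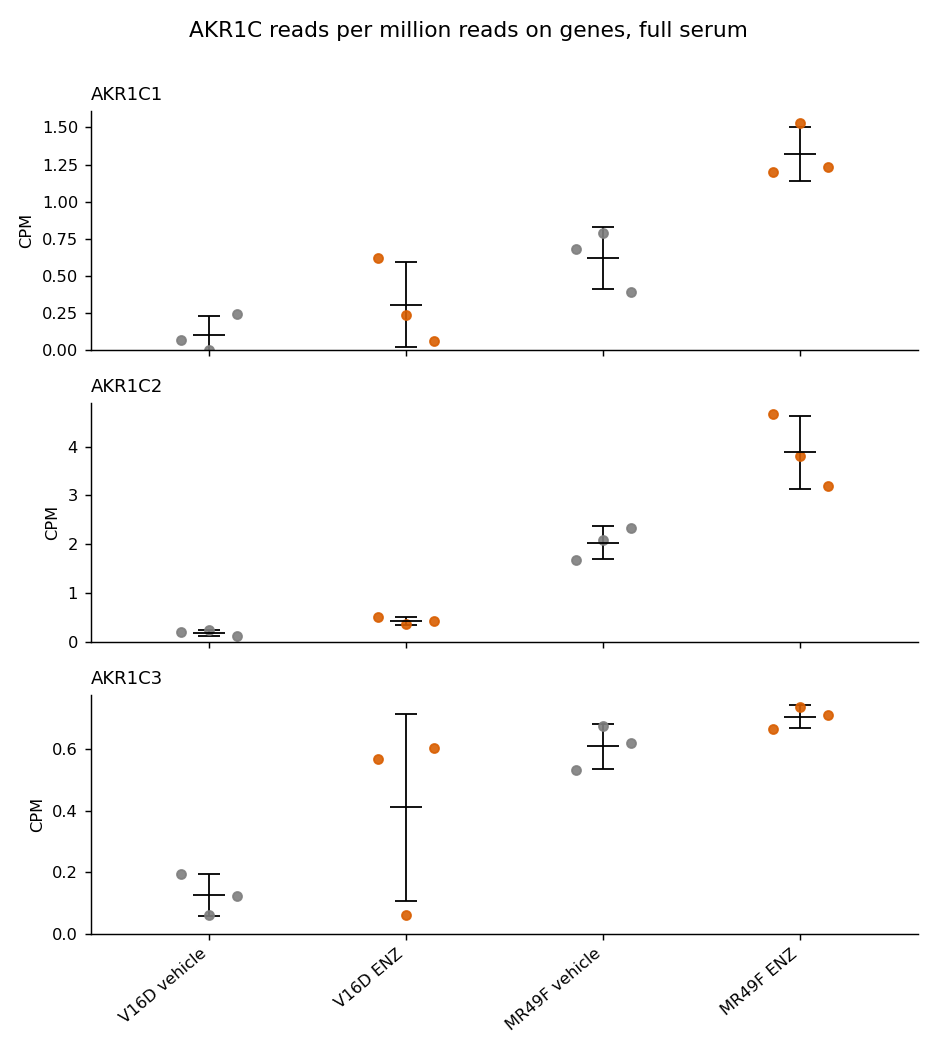
Reads of AKR1C1, AKR1C2 and AKR1C3 scaled to library size (CPM, vertical axes from 0) in the 4 full serum conditions (horizontal axis; ENZ, enzalutamide), with points for libraries and bars for mean and SD (n = 3). AKR1C2 averages 3.88 CPM in MR49F cells with enzalutamide and 2.03 with vehicle, and its V16D libraries all lie lower.

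V16D cells expressed little AKR1C. The vehicle libraries held 1, 0 and 4 reads of AKR1C1, 3, 4 and 2 of AKR1C2 and 3, 1 and 2 of AKR1C3, and none of these genes passed the count filter for enzalutamide. With enzalutamide they held 12, 4 and 1 reads of AKR1C1, 10, 6 and 7 of AKR1C2 and 11, 1 and 10 of AKR1C3. Summed, they held 7, 5 and 8 reads with vehicle and 33, 11 and 18 with enzalutamide, which did not overlap. The sum had a log2 fold change of 1.50 (SE 0.358, adjusted p = 0.000172, edgeR), but it passed the filter through the enzalutamide libraries alone, so it had to differ to be tested. Singly and without the filter, AKR1C3 rose by 1.70 (adjusted p = 0.0421), and AKR1C1 had 1.58 (adjusted p = 0.112) and AKR1C2 1.21 (adjusted p = 0.131, edgeR). That fit called 26.6% of all genes. The enzalutamide response of the sum was not shown to differ between the lines (interaction log2 fold change -0.67, SE 0.430, adjusted p = 0.429, edgeR).

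With vehicle, MR49F cells held more AKR1C than V16D cells. AKR1C2 was 3.40 higher on the log2 scale (SE 0.337, adjusted p = 3.65e-06, edgeR), and the sum was 2.97 higher (SE 0.251, adjusted p = 9.86e-07, edgeR). AKR1C2 and the sum passed the filter through the MR49F libraries alone, so both had to differ to be tested. Without the filter AKR1C2 was 3.40 (adjusted p = 6.72e-08), AKR1C1 2.54 (adjusted p = 0.00280) and AKR1C3 2.25 higher (adjusted p = 0.00204, edgeR), where 48.4% of all genes passed. Of all 14013 genes tested between the lines, 63.7% passed the threshold, so a called gene was the rule, and 3 of the 4 genes of the group that were tested passed (AKR1C2 higher, SRD5A1 and HSD17B6 lower in MR49F).

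In stripped serum AKR1C1 and AKR1C2 were nearly absent from MR49F cells and AKR1C3 was kept. AKR1C1 lay at 0 to 0.200 FPKM over all 18 libraries and AKR1C2 at 0.0197 to 0.133. In the same line in full serum with vehicle, AKR1C1 was at 0.919, 1.32 and 0.967 and AKR1C2 at 0.564, 0.764 and 0.906 FPKM. The groups did not overlap, but the sera were separate experiments and their levels were not tested against each other. AKR1C3 lay at 0.388 to 1.41 FPKM in stripped serum, around its level of 0.862 to 0.895 in full serum with vehicle. Reads on genes were too few to add to this, with 2 reads of AKR1C1, 4 of AKR1C2 and 27 of AKR1C3 over the 18 libraries.

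On FPKM the response of the AKR1C genes to enzalutamide differed between the sera, in a fit whose filter favoured such a difference. In stripped serum AKR1C1 was at 0.0820, 0.115 and 0.0478 FPKM with vehicle and at 0.126, 0.103 and 0.200 with enzalutamide. AKR1C2 was at 0.0871, 0.0475 and 0.0937 FPKM with vehicle and 0.127, 0.0447 and 0.120 with enzalutamide. AKR1C3 was at 1.11, 0.952 and 0.758 FPKM with vehicle and 0.531, 0.647 and 0.760 with enzalutamide. Both groups overlapped for each gene, where full serum had shown separate groups. The difference of the 2 responses (stripped minus full serum, limma on log2(FPKM + 1)) was -0.66 for AKR1C1 (SE 0.107, adjusted p = 0.000911), -0.56 for AKR1C2 (SE 0.126, adjusted p = 0.00626) and -0.60 for AKR1C3 (SE 0.0987, adjusted p = 0.00102). SRD5A3 also passed, at -0.19 (SE 0.0537, adjusted p = 0.0191, limma). Of all 12981 genes tested 34.1% passed. AKR1C1 and AKR1C2 reached 1 FPKM only in full serum libraries and so had to differ to be tested. AKR1C3 reached it only in the full serum enzalutamide libraries and stripped serum vehicle replicate 1, which favours a negative difference. Nothing is read from the count of 4 of 5 genes called. The sum of the 3 AKR1C genes differed by -0.96 (SE 0.125, adjusted p = 0.000201, limma). With a pseudocount of 0.1 in place of 1, AKR1C1 (adjusted p = 0.0803) and AKR1C2 (adjusted p = 0.0696, limma) lost the call and AKR1C3 kept it. SRD5A1 had -0.40 (SE 0.153, adjusted p = 0.0681), and passed without full serum vehicle replicate 3 (adjusted p = 0.0211, limma).

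**Figure D3:**
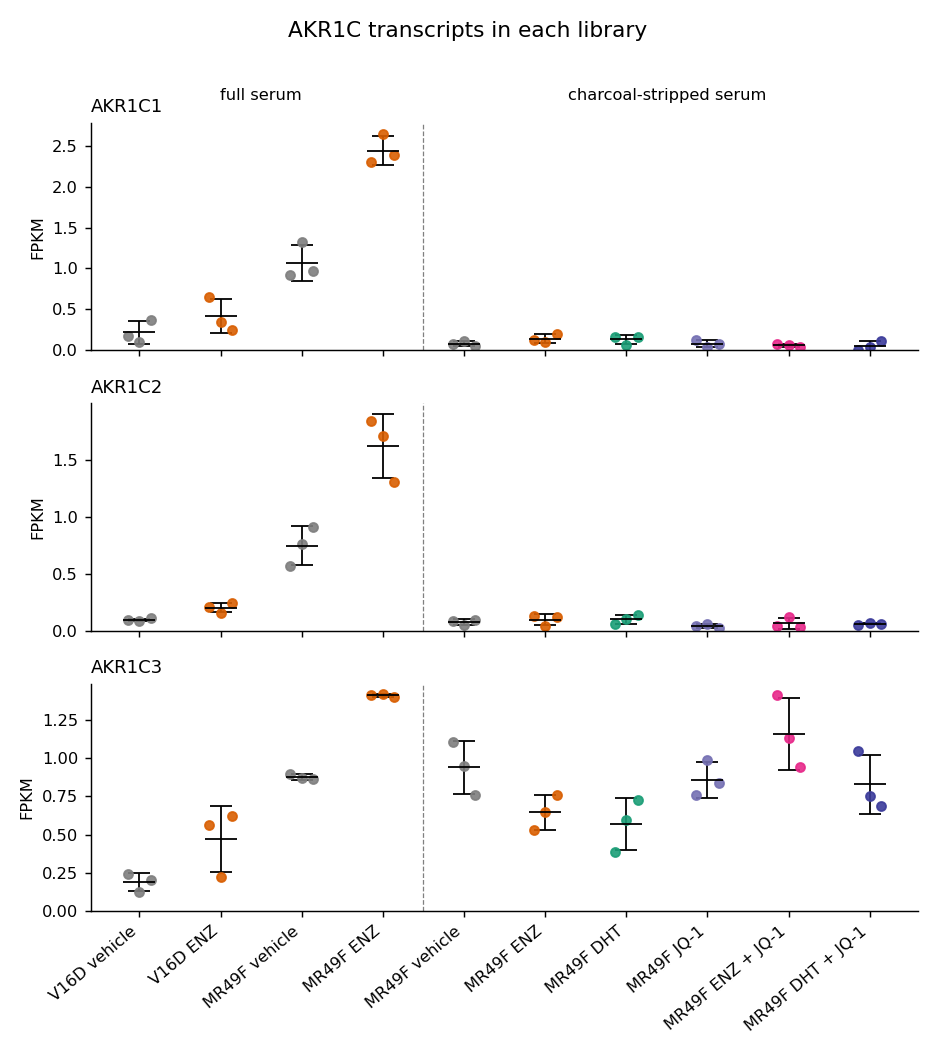
FPKM of AKR1C1, AKR1C2 and AKR1C3 (vertical axes, from 0) in each library of the 10 conditions (horizontal axis; ENZ, enzalutamide), with points for libraries and bars for mean and SD (n = 3). AKR1C1 and AKR1C2 stand at 2.44 and 1.62 FPKM on average in MR49F cells with enzalutamide in full serum and at most 0.200 in stripped serum, where AKR1C3 reaches 1.41.

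AKR1C3 alone was lower with DHT in stripped serum in a fit without a filter, and the sum of the 3 AKR1C genes did not pass. With DHT AKR1C3 was at 0.388, 0.594 and 0.724 FPKM, all under the vehicle libraries. It missed the filter of 1 FPKM for both comparisons. Without it, limma gave -0.31 for DHT (SE 0.100, adjusted p = 0.0412) and -0.23 for enzalutamide (SE 0.0825, adjusted p = 0.0931), and 53.5% of all genes passed for DHT. The sum gave -0.22 for DHT (SE 0.100, adjusted p = 0.0765) and -0.15 for enzalutamide (SE 0.0954, adjusted p = 0.239, limma). With JQ-1 alone the values were 0.757, 0.989 and 0.836 FPKM, a difference of -0.06 (adjusted p = 0.584, limma). With JQ-1 added to enzalutamide they were 1.41, 1.13 and 0.941 FPKM, above the enzalutamide libraries, a difference of 0.39 without the filter (SE 0.0931, adjusted p = 0.0120, limma). In that fit, which called 55.8% of all genes, AKR1C1 went the other way (-0.11, SE 0.0349, adjusted p = 0.0376, limma). AKR1C1 was near 0 there, at 0.0781, 0.0612 and 0.0398 FPKM with enzalutamide and JQ-1. The interaction of JQ-1 with enzalutamide was 0.45 for AKR1C3 (SE 0.134, adjusted p = 0.0366, limma), the call for 1 of 3 genes tested where 19.2% of all genes passed. AKR1C3 passed the filter only through vehicle replicate 1 and replicates 1 and 2 of enzalutamide with JQ-1. High values in those groups raise this interaction, so the filter favoured the call. That call was lost without the filter (adjusted p = 0.0557), with the replicate number as a block (adjusted p = 0.0521) and without vehicle replicate 2, enzalutamide replicate 1 or 2 or JQ-1 replicate 1 or 3 (highest adjusted p = 0.0864, limma). For the sum of the 3 genes this interaction was 0.36 and did not pass (SE 0.136, adjusted p = 0.0906, limma). The sum gave -0.08 for JQ-1 alone (adjusted p = 0.379) and 0.27 for JQ-1 added to enzalutamide (SE 0.100, adjusted p = 0.0324, limma), where all 3 libraries with JQ-1 and 1 of those without it reached 1 FPKM. Its JQ-1 by DHT interaction was 0.19 (adjusted p = 0.249, limma). On counts the interaction fit called 0 of 2 genes of the group and 0.895% of all genes (edgeR), with 0 of 2 at an unadjusted p under 0.05 and 0 called by DESeq2.

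SRD5A1 (chromosome 5 of GRCh37, 6633540 to 6674499), the 5-alpha-reductase that prevails in castration-resistant tumours, had the widest spread of the 10 genes over the 6 group means in stripped serum (SD 0.53 on log2(FPKM + 1)), and it rose with JQ-1. With vehicle it was at 8.86, 9.59 and 7.90 FPKM and with JQ-1 at 12.1, 11.8 and 11.9. With DHT it was at 7.96, 7.48 and 7.94 FPKM and with DHT and JQ-1 at 21.7, 22.9 and 20.3. With enzalutamide it was at 7.52, 6.99 and 8.04 FPKM and with enzalutamide and JQ-1 at 11.3, 14.7 and 12.7. Each JQ-1 group lay wholly above the group it was compared with, and the libraries with DHT and JQ-1 lay above all others.

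On log2(FPKM + 1), SRD5A1 rose with JQ-1 by 0.41 against vehicle (SE 0.0615, adjusted p = 0.000361), by 0.70 when added to enzalutamide (SE 0.0871, adjusted p = 7.69e-05) and by 1.36 when added to DHT (SE 0.0520, adjusted p = 1.2e-07, limma). These are 1.32-fold, 1.63-fold and 2.57-fold on that scale. The counts gave 0.53 (SE 0.258, adjusted p = 0.0887), 1.05 (SE 0.299, adjusted p = 0.00538) and 1.78 (SE 0.257, adjusted p = 3.44e-07, edgeR). The raw counts behind these were few, with 29, 14 and 12 reads of SRD5A1 in the vehicle libraries, 30, 31 and 31 with JQ-1, 9, 19 and 17 with DHT and 82, 38 and 59 with both. The count of JQ-1 against vehicle passed when vehicle replicate 1 was left out (0.89, adjusted p = 0.0184), and that of JQ-1 added to enzalutamide was lost without enzalutamide and JQ-1 replicate 2 (adjusted p = 0.119, edgeR).

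The rise with JQ-1 was larger in the presence of DHT. The interaction of JQ-1 with DHT was 0.96 for SRD5A1 on log2(FPKM + 1) (SE 0.0848, adjusted p = 3.17e-06, limma) and 1.25 on counts (SE 0.392, adjusted p = 0.0271, edgeR). Of all genes, 48.0% passed this interaction on FPKM and 12.3% on counts, and both of the 2 genes tested passed on FPKM and 1 of 2 on counts. The count interaction was lost without replicate 1 of the vehicle, DHT, JQ-1 or DHT with JQ-1 group (highest adjusted p = 0.226, edgeR), whereas the FPKM interaction passed in each of these fits. DESeq2 gave the count interaction an adjusted p of 0.0834. With enzalutamide the interaction was 0.30 on log2(FPKM + 1) (SE 0.118, 95% interval 0.06 to 0.53) and did not pass (adjusted p = 0.102, limma), except without enzalutamide and JQ-1 replicate 1 (adjusted p = 0.0334, limma). For comparison, KLK3, a classical androgen-induced gene of the prostate, had 2.15 for DHT, 1.50 for enzalutamide and -5.15 for JQ-1 against vehicle on log2(FPKM + 1), and TMPRSS2, another such gene, had 2.82, 1.93 and -1.39, all of them called (limma).

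**Figure D4:**
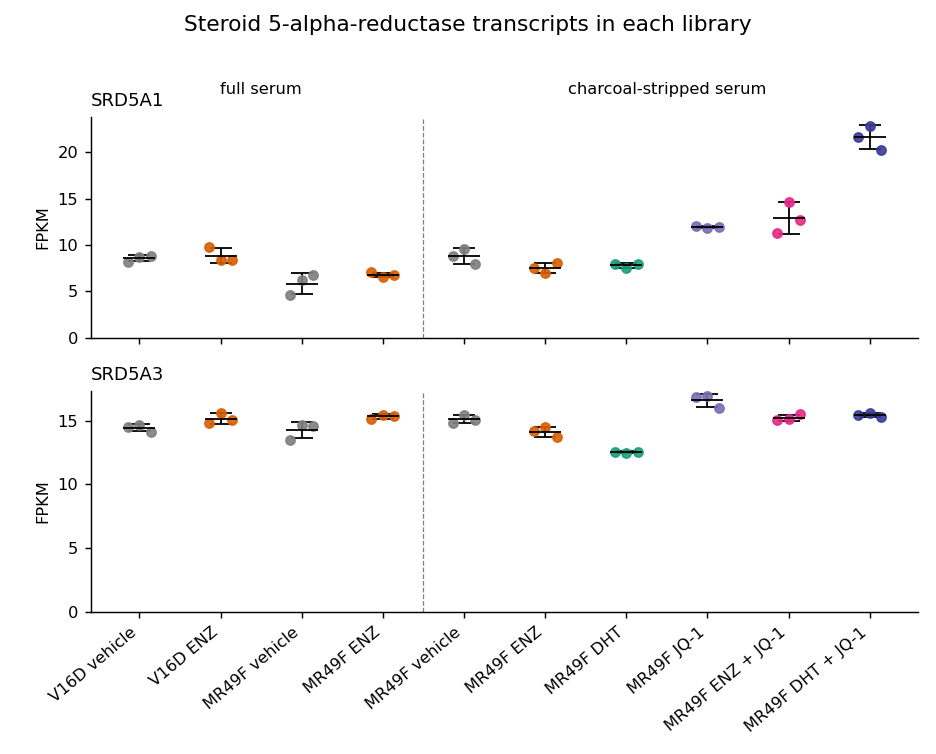
FPKM of SRD5A1 and SRD5A3 (vertical axes, from 0) in each library of the 10 conditions (horizontal axis; ENZ, enzalutamide), with points for libraries and bars for mean and SD (n = 3). SRD5A1 averages 21.6 FPKM with DHT and JQ-1 and 5.84 to 12.9 in the other conditions, whereas SRD5A3 stays between 12.5 and 16.6 on average.

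The ligands alone moved SRD5A1 little. On log2(FPKM + 1), enzalutamide gave -0.20 (SE 0.0721, adjusted p = 0.0561) and DHT -0.15 (SE 0.0659, adjusted p = 0.0674, limma), both short of the threshold. The vehicle and enzalutamide libraries overlapped. Without vehicle replicate 3 both passed (adjusted p = 0.0173 and 0.00894), and enzalutamide passed too without enzalutamide replicate 3 (adjusted p = 0.0432) or with libraries scaled to the same median FPKM (adjusted p = 0.0466, limma). On counts the differences were -0.37 (SE 0.312, adjusted p = 0.553) and -0.16 (SE 0.328, adjusted p = 0.736, edgeR). DHT and enzalutamide differed by 0.05 on log2(FPKM + 1) (95% interval -0.06 to 0.16, adjusted p = 0.499, limma).

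In full serum SRD5A1 was lower in MR49F than in V16D cells. The vehicle libraries held 178, 305 and 237 reads in MR49F and 359, 414 and 399 in V16D, at 4.59, 6.17 and 6.77 against 8.18, 8.73 and 8.80 FPKM. The lines did not overlap on either scale, and the log2 fold change was -0.56 (SE 0.102, adjusted p = 0.000473, edgeR). Enzalutamide did not change SRD5A1 detectably in either line. In V16D the reads were 500, 378 and 375 with enzalutamide (log2 fold change -0.02, 95% interval -0.15 to 0.10, adjusted p = 0.826), and in MR49F they were 293, 342 and 388 (0.19, 95% interval -0.02 to 0.39, adjusted p = 0.288, edgeR). In V16D 0 of the 3 genes of the group that were tested passed with enzalutamide, against 37.5% of all genes, and the line by enzalutamide interaction was passed by 0 of 7 against 6.95% (edgeR). At an unadjusted p under 0.05 and with DESeq2 both of these counts were also 0.

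Ordered by mean FPKM, SRD5A1 stood at 21.6 ± 1.31 (SD, n = 3) with DHT and JQ-1, 12.9 ± 1.70 with enzalutamide and JQ-1 and 11.9 ± 0.119 with JQ-1, the last pair overlapping. Below a gap came V16D cells with enzalutamide (8.86 ± 0.808), MR49F cells in stripped serum with vehicle (8.79 ± 0.848) and V16D cells with vehicle (8.57 ± 0.342), which overlapped. Stripped serum with DHT (7.79 ± 0.273) and with enzalutamide (7.52 ± 0.523) and MR49F cells in full serum with enzalutamide (6.78 ± 0.230) and with vehicle (5.84 ± 1.12) came last, and each of these overlapped the next. The sera were separate experiments, and SRD5A1 levels were not tested between them.

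**Figure D5:**
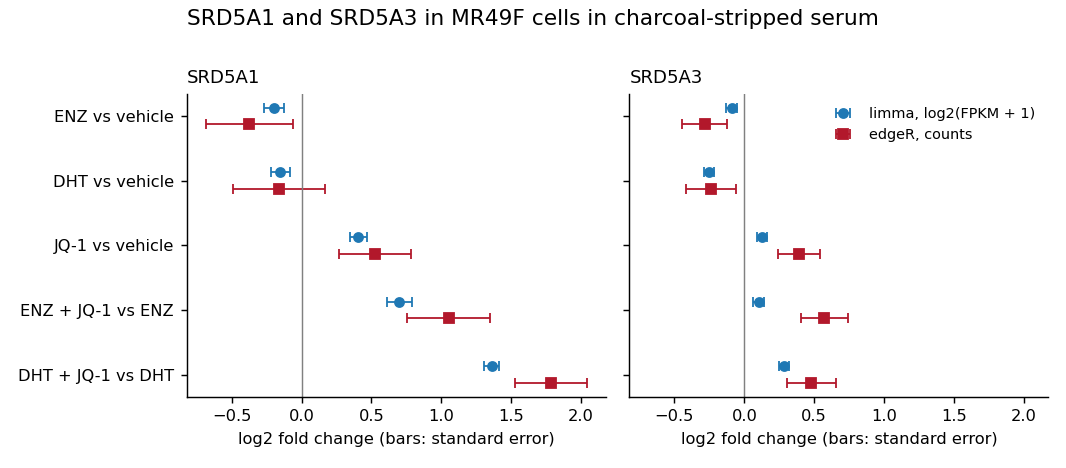
Log2 fold changes of SRD5A1 and SRD5A3 (horizontal axes) in MR49F cells in stripped serum for 5 comparisons (rows; ENZ, enzalutamide), with circles for limma on log2(FPKM + 1), squares for edgeR on counts and bars for the standard error (3 libraries a group). SRD5A1 is at 0.41, 0.70 and 1.36 on the FPKM scale in the comparisons with JQ-1, and SRD5A3 lies between -0.25 and 0.28 on that scale.

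Among 12002 genes averaging at least 1 FPKM in stripped serum, those whose log2(FPKM + 1) followed SRD5A1 most closely over the 18 libraries were COL4A3BP, a ceramide transporter (Pearson r = 0.968), FZD1, a Wnt receptor (r = 0.967), and PAPSS1, which makes the sulfate donor for steroid sulfation (r = 0.967). The libraries share treatments and normalization, and no test was made. PAPSS1 averaged 24.2 FPKM with vehicle, 25.2 with DHT, 40.1 with JQ-1 and 57.7 with both. COL4A3BP averaged 9.80, 8.32, 11.7 and 15.1 FPKM in these 4 groups, and FZD1 4.69, 5.02, 6.60 and 10.6. As with SRD5A1, the highest mean was with DHT and JQ-1, which the choice of genes by this correlation favours.

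SRD5A3 (chromosome 4 of GRCh37, 56212380 to 56239267), which reduces polyprenol to dolichol for protein glycosylation, varied little between conditions. Its exons overlap those of SRD5A3-AS1 on the other strand over up to 563 bases, and the antisense gene was at 0.413 FPKM in stripped serum with vehicle. SRD5A3 was lower with DHT and slightly higher with JQ-1. With vehicle it was at 14.8, 15.4 and 15.0 FPKM, with DHT at 12.5, 12.4 and 12.6, and with JQ-1 at 16.8, 16.9 and 15.99. With enzalutamide it was at 14.2, 14.5 and 13.7 FPKM, with enzalutamide and JQ-1 at 15.1, 15.1 and 15.5, and with DHT and JQ-1 at 15.5, 15.6 and 15.3. None of these pairs of groups overlapped. With DHT SRD5A3 fell by 0.25 on log2(FPKM + 1) (SE 0.0375, adjusted p = 0.000312, limma), the call for 1 of the 2 genes tested where 72.1% of all genes passed, and on counts the difference was -0.24 (SE 0.179, adjusted p = 0.316), with 0 of 2 called against 37.5% (edgeR), 0 at an unadjusted p under 0.05 and 0 by DESeq2.

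JQ-1 raised SRD5A3 by 0.13 on log2(FPKM + 1) against vehicle (SE 0.0374, adjusted p = 0.0140), by 0.10 when added to enzalutamide (SE 0.0413, adjusted p = 0.0469) and by 0.28 when added to DHT (SE 0.0347, adjusted p = 9.66e-05, limma). The counts gave 0.39 (SE 0.150, adjusted p = 0.0293), 0.57 (SE 0.170, adjusted p = 0.00748) and 0.48 (SE 0.176, adjusted p = 0.0212, edgeR). With SRD5A1, 2 of the 2 genes tested passed on FPKM in each JQ-1 comparison, beside 75.1%, 75.7% and 78.8% of all genes, and on counts 1, 2 and 2 of 2 passed, beside 46.6%, 45.1% and 54.7%. The FPKM call with enzalutamide was lost when any single library was left out and with a replicate block (adjusted p = 0.105, limma), and that against vehicle without JQ-1 replicate 2 (adjusted p = 0.0558, limma). The count calls against vehicle and with DHT were lost without some libraries (JQ-1 replicate 1 or 2 or vehicle replicate 2 or 3, and DHT replicate 2 or DHT with JQ-1 replicate 1 or 2, highest adjusted p = 0.132, edgeR), and DESeq2 gave SRD5A3 adjusted p-values of 0.136, 0.0565 and 0.0976 in the 3 comparisons.

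The interaction of JQ-1 with DHT passed for SRD5A3 on FPKM (0.16, SE 0.0438, adjusted p = 0.0119, limma), and on counts it was 0.09 (SE 0.230, adjusted p = 0.858, edgeR). The comparisons of JQ-1 added to DHT and of DHT against vehicle share the DHT libraries, so their values for SRD5A3 (0.28 and -0.25) are not independent. Enzalutamide gave -0.09 in stripped serum (SE 0.0423, adjusted p = 0.119, limma, and 0.0218 in a single fit of all 18 libraries), and 0 of 2 genes passed that comparison on FPKM or counts, beside 38.7% and 7.26% of all genes. SRD5A1 had an unadjusted p of 0.0225 there (limma) and neither gene was under 0.05 on counts (edgeR), where DESeq2 called 0. DHT and enzalutamide differed by -0.16 (SE 0.0419, adjusted p = 0.00935, limma), the call for 1 of 2 genes beside 57.4%, and this was lost when libraries were scaled to the same median FPKM (-0.09, adjusted p = 0.0988, limma). On counts 0 of 2 passed beside 19.4% (edgeR), with 0 at an unadjusted p under 0.05 and 0 by DESeq2. In full serum SRD5A3 held 1011 to 1727 reads per library and differed neither between the lines (-0.02, 95% interval -0.12 to 0.08, adjusted p = 0.746) nor with enzalutamide in V16D (0.04, adjusted p = 0.472) or MR49F cells (0.06, adjusted p = 0.416, edgeR) beyond the spread of replicates.

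HSD17B6 (chromosome 12 of GRCh37, 57145945 to 57181574), which can turn androstanediol back into DHT, was lower in MR49F than in V16D cells. The vehicle libraries held 16, 30 and 18 reads in MR49F and 39, 43 and 32 in V16D, without overlap. The log2 fold change was -0.69 (SE 0.213, adjusted p = 0.0141, edgeR), and the call was lost without V16D vehicle replicate 2 (adjusted p = 0.0559, edgeR) and with DESeq2 (adjusted p = 0.0541). Enzalutamide gave -0.32 in V16D (SE 0.208, adjusted p = 0.232) and 0.25 in MR49F cells (SE 0.206, adjusted p = 0.526, edgeR). In stripped serum HSD17B6 lay at 0.206 to 0.678 FPKM, all under the 0.624 to 1.02 of MR49F cells in full serum but for 4 libraries between 0.632 and 0.678. These levels come from separate experiments and were not tested against each other. Its exons overlap those of PRIM1, on the other strand, over up to 132 bases, and PRIM1 was at 5.62 FPKM in stripped serum with vehicle. HSD17B6 was at 0.324, 0.310 and 0.450 FPKM with vehicle and 0.597, 0.444 and 0.567 with JQ-1, with overlap. The difference was 0.17 in the fit without a filter (SE 0.0566, adjusted p = 0.0391, limma), where 55.9% of all genes passed. On counts, with 3 reads in each group, it was -0.17 without a filter (adjusted p = 0.945, edgeR). With enzalutamide it was at 0.678, 0.523 and 0.502 FPKM, above the vehicle libraries, but the difference of 0.20 did not pass (SE 0.0597, adjusted p = 0.0556, limma). DHT and enzalutamide differed by -0.15 without a filter (SE 0.0493, adjusted p = 0.0481, limma), where 40.4% of all genes passed. On counts, with 1 read against 6, this did not pass (adjusted p = 0.366 without a filter, edgeR).

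The 250 bases before the annotated start were available from RefSeq (GRCh38.p14) for 9 of the 10 genes, with 11 starts. None of these windows holds AGAACA, a half-site for steroid hormone responses, on either strand, where 12.4% of 35116 human promoters of that length do. TGACNNNGC, the core of the antioxidant response element, was found before SRD5A3 only (10.9% of all promoters), and so was the E-box CACGTG (6.34%), at another place. The windows of AKR1C1 and AKR1C2 share an identical run of 245 bases, and the longest run that either shares with an AKR1C3 start is 19. These matches describe the letters of the windows.

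A wider list of 46 other steroid genes was read in the same fits. In stripped serum most of those tested fell with JQ-1, unlike SRD5A1. On FPKM 21 of 22 changed with JQ-1, 3 up and 18 down, with a median log2 difference of -0.43 where all genes had -0.06, and 75.1% of all genes passed. The cholesterol and DHEA sulfotransferase SULT2B1 fell from 10.0 ± 0.601 to 1.37 ± 0.181 FPKM (SD, n = 3), a difference of -2.22 (SE 0.0680, adjusted p = 4.37e-08, limma). HSD3B7, of bile acid synthesis, fell from 11.0 ± 0.515 to 1.83 ± 0.158 FPKM, TSPO, a mitochondrial cholesterol-binding protein, from 45.1 ± 4.56 to 17.3 ± 2.62, and HSD11B2, which inactivates cortisol, from 16.01 ± 0.901 to 6.97 ± 0.245. When JQ-1 was added to enzalutamide 18 of 22 changed (3 up, 15 down), and when it was added to DHT 17 of 22 (4 up, 13 down), where 75.7% and 78.8% of all genes did. PAPSS1 was among those that rose with DHT and JQ-1, by 1.16 (SE 0.0356, adjusted p = 4.18e-08, limma).

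With the ligands in stripped serum, 13 of 22 genes of this list changed with enzalutamide on FPKM (5 up, 8 down) and 18 of 22 with DHT (6 up, 12 down), where 38.7% and 72.1% of all genes did. RDH11, a retinol dehydrogenase, rose with enzalutamide from 119 ± 2.88 to 167 ± 4.39 FPKM. With DHT the largest of the called and non-overlapping changes was that of HSD3B7, which fell from 11.0 ± 0.515 to 4.75 ± 0.437 FPKM. HSD17B14 fell from 3.69 ± 0.128 to 1.74 ± 0.278. The electron carriers of steroidogenic mitochondria fell too, FDXR from 12.5 ± 0.533 to 5.90 ± 0.379 and FDX1 from 9.84 ± 0.816 to 5.53 ± 0.190 FPKM. CYB5A, which aids the lyase step of CYP17A1, rose from 98.7 ± 6.04 to 188 ± 7.65. Counts called 1, 7 and 12 of 20, 20 and 19 genes tested for enzalutamide, DHT and JQ-1, beside 7.26%, 37.5% and 46.6% of all genes (edgeR). In full serum 11 of 25 changed with enzalutamide in V16D cells (6 up, 5 down) beside 37.5% of all genes. In MR49F cells 2 of 27 changed beside 8.48% of all genes, as RDH11 rose by 0.38 (SE 0.0424, adjusted p = 0.000289) and CYB5A fell (log2 fold change -0.19, SE 0.0480, adjusted p = 0.0379, edgeR). Between the lines 17 of 26 differed beside 63.7% of all genes, 11 higher and 6 lower in MR49F, with SULT2B1 at 1.85 (SE 0.140, adjusted p = 3.87e-07) and TSPO at 1.15 (SE 0.115, adjusted p = 3.84e-06, edgeR).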

How the data were processed

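RNA-seq of 30 libraries in 10 conditions with 3 replicates each was analysed, with conditions taken from the sample labels. Alignment by the authors was of single-end 50-base reads to hg19 (GRCh37), with TopHat 2.0.9. The deposited read counts per gene symbol, made with HTSeq, are not normalized, and the strand setting is not given in the sources used here. The authors also deposited FPKM per transcript from Cufflinks 2.1.1 (43497 transcripts), which were summed here by gene symbol.

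The count test was edgeR 4.0.16 in R 4.3.3 (quasi-likelihood, TMM, filterByExpr with a minimum count of 10 and total of 15), and the FPKM test was limma 3.58.1 (trend) on log2(FPKM + 1), kept to genes that reached 1 FPKM in 3 or more fitted libraries. A pseudocount understates the change of low genes. P-values were Benjamini-Hochberg adjusted over all genes tested, with a threshold of 0.05, in 13 comparisons. Only the groups compared entered a fit, and interactions used 12 libraries. Intervals are 95% and come from the standard error by the normal approximation.

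The 10 genes and the lists were chosen with earlier results of these data known. All 10 are reported, of 46 other steroid genes at most the 5 largest called and non-overlapping changes per comparison, and for genes whose 6 group means in stripped serum had an SD of at least 0.5 (SRD5A1 only) the 3 most correlated genes. KLK3 and TMPRSS2 served as androgen-responsive genes, and 15 targets of NRF2 were read as a further list.

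The alternatives were no filter, a minimum of 10 counts in each library, DESeq2 1.42.0 (size factors in edgeR, and its Wald test), a replicate block, all groups of a serum in a single fit, a pseudocount of 0.1, FPKM in place of counts, scaling to the same median FPKM, a two-group test after removing the 50% of genes with the lowest variance, and leaving out each library. Summing AKR1C1 to AKR1C3 was added later. The fits were tested on simulated data first. Some genes and variants are not reported here. Coordinates are those of GENCODE release 44 on GRCh37, which is not the annotation the authors counted on.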

Additional observations from a re-analysis of the deposited data

Results flagged for a closer look

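For 8 interaction terms the difference between 2 responses passed the threshold itself. In stripped serum SRD5A1 rose more with JQ-1 when DHT was present, by 0.96 on log2(FPKM + 1) (adjusted p = 3.17e-06, limma) and by 1.25 on counts (adjusted p = 0.0271, edgeR), and all 3 libraries with DHT and JQ-1 lay above all others. SRD5A3 had a JQ-1 by DHT interaction of 0.16 on log2(FPKM + 1) (adjusted p = 0.0119, limma), with a response of 0.28 to JQ-1 in the presence of DHT and 0.13 without it. AKR1C3 had a JQ-1 by enzalutamide interaction of 0.45 (adjusted p = 0.0366, limma), with single values of 0.531 to 1.41 FPKM. It passed the filter only through libraries of the groups that raise this interaction, and without the filter the call was lost (adjusted p = 0.0557, limma).

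In MR49F cells the enzalutamide response in stripped serum minus that in full serum was -0.66 for AKR1C1 (adjusted p = 0.000911), -0.56 for AKR1C2 (adjusted p = 0.00626), -0.60 for AKR1C3 (adjusted p = 0.00102) and -0.19 for SRD5A3 (adjusted p = 0.0191, limma on log2(FPKM + 1)). AKR1C1 and AKR1C2 passed the filter through full serum libraries alone, and both lost the call with a pseudocount of 0.1 (adjusted p = 0.0803 and 0.0696, limma). AKR1C3 passed it only through the full serum enzalutamide libraries and stripped serum vehicle replicate 1, which favours a negative difference. Serum, plating density and experiment cannot be told apart in these 4 differences.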

How the results depend on the processing

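Of the 10 genes, the number called in a comparison was 0 to 4 and moved by more than 1.5 times under these alternatives. Without a filter on low values it became 1 (from 0) for enzalutamide in V16D cells, 6 (from 3) between the lines, and, on FPKM in stripped serum, 2 (from 1) for DHT against vehicle or enzalutamide, 4 (from 2) for JQ-1, 5 (from 2) for JQ-1 added to enzalutamide and 0 (from 1) for the JQ-1 by enzalutamide interaction. With a minimum of 10 counts in each library it was 1 (from 2) for enzalutamide in MR49F cells in full serum and for JQ-1 added to DHT, and 0 (from 1) for the JQ-1 by DHT interaction on counts. DESeq2 called 1 (from 2) in MR49F cells with enzalutamide, where AKR1C1 got no adjusted p, and for JQ-1 added to enzalutamide or to DHT, and 0 (from 1) for JQ-1 and for the JQ-1 by DHT interaction. A single fit over the serum gave 1 (from 2) in MR49F cells, 6 (from 3) between the lines, 1 (from 0) for enzalutamide and 2 (from 1) for DHT in stripped serum. The equal-variance two-group test gave 1 (from 0) in V16D cells, 6 between the lines, 0 (from 1) for DHT against vehicle or enzalutamide, and 1 (from 2) for JQ-1 and for JQ-1 added to DHT. Scaling to the same median FPKM gave 1 (from 0) for enzalutamide and 0 (from 1) for DHT against enzalutamide in stripped serum, and a pseudocount of 0.1 gave 2 (from 4) for the serum by enzalutamide interaction.

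Leaving out each library in turn gave 0 to 2 called in MR49F cells with enzalutamide in full serum. In stripped serum it gave, on FPKM, 0 to 1 for enzalutamide and for the JQ-1 by enzalutamide interaction, 1 to 2 for DHT and for JQ-1, and 1 for JQ-1 added to enzalutamide. On counts it gave 0 to 2 for JQ-1, 1 to 2 for JQ-1 added to enzalutamide or DHT, and 0 to 1 for the JQ-1 by DHT interaction. The count of all genes called moved by more than 1.5 times for enzalutamide in MR49F cells in full serum (1181, 2558 in a single fit, 575 on FPKM, 419 by the two-group test and 406 to 2533 without single libraries), in V16D cells (5276, 3049 by the two-group test) and for the line by enzalutamide interaction (1006, and 742 to 1579 without single libraries). On counts in stripped serum it did so for enzalutamide (808, 387 by DESeq2, 1323 with a replicate block, 414 to 910 without single libraries), DHT against enzalutamide (2122, 1223 by DESeq2) and the JQ-1 interactions with enzalutamide (104, 53 by DESeq2, 182 without a filter, 61 to 293 without single libraries) and DHT (1428, 777 by DESeq2). Of the wider steroid list, 6 (from 2) changed in MR49F cells with enzalutamide in a single fit or without vehicle replicate 1 and 1 on FPKM or without any enzalutamide library, and in V16D cells 6 (from 11) by DESeq2 and 7 without vehicle replicate 1. No tested change of the 10 genes reversed while called. Where a setting alone changed a call, the cause was not tested.

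The replicate numbers were tried as a block. Same-numbered libraries showed no detectable shared deviation from their group means (mean r 0.00627 in full and 0.0135 in stripped serum, where pairs ranged from -0.158 to 0.171). This cannot tell whether same-numbered libraries were prepared together. With the replicate block 1 (from 2) of the genes was called for JQ-1 added to enzalutamide on FPKM and 0 (from 1) for the JQ-1 by enzalutamide interaction, and no other count of the 10 genes moved by more than 1.5 times.

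Reads on genes in stripped serum were at most 1813262 per library, so genes with a few reads there could not be compared on counts. The counting left a further 14813917 to 24126651 reads per library outside genes there, against 3418560 to 5941473 in full serum. Low counts on genes thus do not mean few sequenced reads. How many of these reads entered the FPKM is not given.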

Other observations

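AKR1C genes belong to the known targets of the antioxidant response factor NRF2, and 15 such genes were read in the same fits. With enzalutamide in MR49F cells in full serum, 3 of the 14 tested rose and 0 fell, where 8.48% of all genes changed. These were GCLC, the catalytic subunit of glutathione synthesis (log2 fold change 0.41, SE 0.0583, adjusted p = 0.00171), the cystine transporter SLC7A11 (0.28, SE 0.0722, adjusted p = 0.0373) and the thioredoxin reductase TXNRD1 (0.25, SE 0.0660, adjusted p = 0.0438, edgeR). These were also the 3 of 14 that passed the line by enzalutamide interaction, beside 6.95% of all genes, at 0.50, 0.45 and 0.28 (adjusted p = 7.1e-05, 0.000897 and 0.0192, edgeR).

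In V16D cells 7 of 14 changed with enzalutamide, 5 up and 2 down, where 37.5% of all genes changed. The quinone reductase NQO1 had 0.24 (SE 0.0265, adjusted p = 5.71e-18) and SLC7A11 -0.18 (SE 0.0256, adjusted p = 3.47e-11, edgeR). Between the lines 9 of 14 differed, 7 higher and 2 lower in MR49F cells, beside 63.7% of all genes, with NQO1 1.23 higher (SE 0.0772, adjusted p = 8.72e-08, edgeR). In stripped serum 9 of 13 passed on FPKM with enzalutamide and 9 of 13 with DHT (7 up and 2 down in each), and 13 of 13 with JQ-1 (7 up, 6 down), beside 38.7%, 72.1% and 75.1% of all genes. On counts 2, 6 and 9 of 10 passed, beside 7.26%, 37.5% and 46.6% (edgeR). With enzalutamide in stripped serum SLC7A11 had 1.12, TXNRD1 0.29 and GCLC -0.81 on log2(FPKM + 1) (limma). GCLC thus went the other way than in MR49F cells in full serum.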
